A study of Rattus norvegicus with 4 samples.

Results

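The genes described here are 31 genes of cholesterol and fatty acid synthesis, taken by name and followed through single-cell libraries of rat subcutaneous fascia and skin. Of the 31, 29 have a row under their symbol among the 30560 genes of the count tables. They comprise 14 sterol enzymes (Hmgcs1, Sqle, Idi1, Fdft1, Cyp51, Lss, Dhcr7, Msmo1, Hsd17b7, Sc5d, Mvd, Mvk, Pmvk and Acat2), 3 regulators (Insig1, Srebf1 and Srebf2) and 12 fatty acid enzymes (Fasn, Acaca, Acly, Elovl1, Elovl4, Elovl5, Elovl6, Fads1, Fads2, Scd, Acsl1 and Acsl3). Levels of Fdps and Nsdhl were not analysed here, and only their promoters are counted. The list goes by name and function and was drawn up with earlier results of these data known. The groups are subcutaneous fascia of wild-type rats (2 libraries) and skin of wild-type rats (2 libraries), and the study asked how the tissues differ in their cells. All 4 libraries were prepared alike: blood and adipose were cleared from the tissue, collagenase and elastase released the cells, red cells were lysed, dead cells were removed, and 3' droplet libraries with unique molecular identifiers (UMIs, tags that count each captured RNA molecule once) were made. The labels used here do not say whether the libraries of a tissue come from different animals, so p-values measure the spread between libraries.

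Cholesterol is built from acetyl-CoA through the mevalonate pathway. Hmgcs1 makes the precursor of mevalonate, and the kinases Mvk and Pmvk, the decarboxylase Mvd and the isomerase Idi1 make isoprene units. Fdft1 and Sqle commit them to sterols, and Lss closes the ring that Cyp51, Msmo1, Hsd17b7, Sc5d and Dhcr7 trim. Fatty acids start with Acly, Acaca and Fasn and are lengthened by the Elovl enzymes, desaturated by Scd and the Fads enzymes, and activated by the Acsl ligases. The transcription factors Srebf2 and Srebf1 drive many of the sterol and fatty acid genes, and Insig1 holds their activator in the endoplasmic reticulum when sterols are plentiful. In skin, sebaceous glands make the lipids of sebum and the upper epidermis makes the cholesterol, fatty acids and ceramides of the water barrier.

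The promoters of 5 members are shown because the results turn on them: Hmgcs1, Idi1 and Msmo1 for the sterol enzymes, Elovl4 and Scd for the fatty acid enzymes. Each runs from 250 bases before to 50 bases after the RefSeq start (build GRCr8), 5' to 3' on the gene's strand. Capitals mark CCAAT and GGGCGG, read on either strand (so also ATTGG and CCGCCC). No CCAAT or GGGCGG lies in the Scd window. The windows are chr2:53382054-53382353 (plus strand) for Hmgcs1, chr17:66547475-66547774 (minus) for Idi1, chr16:29746863-29747162 (plus) for Msmo1, chr8:93609430-93609729 (minus) for Elovl4 and chr1:253231682-253231981 (minus) for Scd.
Hmgcs1: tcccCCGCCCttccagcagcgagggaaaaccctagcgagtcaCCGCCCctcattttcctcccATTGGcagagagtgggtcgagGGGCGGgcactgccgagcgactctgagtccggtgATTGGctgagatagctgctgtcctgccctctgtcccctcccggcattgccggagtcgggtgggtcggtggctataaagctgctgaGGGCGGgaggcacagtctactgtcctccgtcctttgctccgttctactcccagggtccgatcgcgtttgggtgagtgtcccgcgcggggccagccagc
Idi1: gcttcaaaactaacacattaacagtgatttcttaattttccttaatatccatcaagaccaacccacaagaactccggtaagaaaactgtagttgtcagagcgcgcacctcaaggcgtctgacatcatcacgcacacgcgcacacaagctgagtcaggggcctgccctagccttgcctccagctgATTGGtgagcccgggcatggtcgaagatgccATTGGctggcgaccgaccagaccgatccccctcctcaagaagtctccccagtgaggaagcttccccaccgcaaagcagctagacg
Msmo1: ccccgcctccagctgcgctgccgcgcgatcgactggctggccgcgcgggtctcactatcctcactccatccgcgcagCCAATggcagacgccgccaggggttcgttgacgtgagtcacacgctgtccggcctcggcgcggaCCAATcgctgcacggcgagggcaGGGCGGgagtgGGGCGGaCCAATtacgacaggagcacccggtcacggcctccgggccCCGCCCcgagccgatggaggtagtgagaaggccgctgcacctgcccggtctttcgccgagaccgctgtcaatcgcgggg
Elovl4: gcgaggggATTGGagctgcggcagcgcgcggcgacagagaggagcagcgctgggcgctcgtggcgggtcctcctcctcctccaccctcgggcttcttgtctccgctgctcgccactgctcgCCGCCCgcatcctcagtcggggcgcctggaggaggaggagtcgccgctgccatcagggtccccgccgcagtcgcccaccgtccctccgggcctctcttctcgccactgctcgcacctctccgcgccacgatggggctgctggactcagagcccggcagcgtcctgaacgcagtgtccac
Scd: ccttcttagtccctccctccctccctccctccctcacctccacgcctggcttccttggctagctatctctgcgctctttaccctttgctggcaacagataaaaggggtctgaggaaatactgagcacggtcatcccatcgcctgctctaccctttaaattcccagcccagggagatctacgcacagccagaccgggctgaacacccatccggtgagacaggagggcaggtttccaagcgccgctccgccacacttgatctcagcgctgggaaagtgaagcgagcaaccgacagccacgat
RefSeq gave 26 promoters for 25 of the 31 members, Srebf1 having 2. Fdps and Nsdhl, whose levels were not analysed, are among the 25. CCAAT was present in 20 of the 26 (76.9%), against 37.5% of 33469 rat promoters of the same length. GGGCGG, the GC box, was also present in 20 of the 26 (76.9%), against 33.1% of all promoters. TCACNCCAC, a sterol response element written with 1 free base, was in 0 of the 26, against 1.12% of all promoters; other spellings of the element were not searched. All motifs were read on both strands, and a match is a stretch of letters, not a bound site.

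The fascia libraries held 7697 and 7712 barcodes with 95777810 and 83852172 UMIs, and the skin libraries 7945 and 17527 barcodes with 88334062 and 85165728 UMIs. After filtering, 6602 and 6820 fascia cells and 7015 and 14279 skin cells remained. Skin library 2 stood apart in depth: its kept cells had a median of 2457 UMIs, against 12680, 10330 and 8859 in fascia 1, fascia 2 and skin 1. In total 176 barcodes occurred in 2 libraries and 1 in 3. Cells were clustered without the 29 genes, and 51 clusters were named from marker lists as "-like" classes, with the scoring thresholds chosen after the marker scores were seen; 4442 cells of skin library 2 stayed unnamed. Krt5, the basal keratin, was at no more than 6.76 CPM (counts per 1000000 UMIs of a class in a library) in fascia fibroblasts, mural cells, endothelial cells and leukocytes, against 2665 and 5395 CPM in the skin keratinocyte-like cells. No cluster scored best for adipocytes.

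The 29 genes together took most of their UMIs in skin from epithelial cells, and a small cluster of sebocyte-like cells stood far above every other class. Sebocyte-like cells gave 1.70% and 1.21% of their UMIs to the 29 genes in skin libraries 1 and 2 (mean 1.45%, n = 2). The shares were 0.198% and 0.149% in inner root sheath or hair shaft-like cells and 0.140% and 0.134% in keratinocyte-like cells. Among the classes present in both tissues, the highest mean share was 0.115% ± 0.0110 in fascia mural cells and the lowest was 0.0531% ± 0.00472 in fascia blood endothelial cells (SD, n = 2 each). With doublets kept, the fascia mural mean was 0.0736%, below fascia lymphocytes (0.0979%) and dendritic cells (0.0883%). In that setting a cluster with 841 and 1180 fascia cells that scored best for mural lost its name. The fascia mural class then held 400 and 753 cells, against 1255 and 1964 in the main setting. A share is a sum over the cells of a class, so the sum alone cannot tell fewer expressing cells from less RNA per cell. The median share per mural cell was nearly level, at 0.0858% and 0.0871% in fascia against 0.0854% and 0.0843% in skin. The 90th percentile was 0.195% and 0.237% in fascia mural cells against 0.197% and 0.174% in skin. Per-cell medians were 0.0970% and 0.101% in keratinocyte-like cells, near skin lymphocytes at 0.0938% and 0.0947%.

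The share differed little between the tissues within a class. It was 0.0882% and 0.0774% in fascia fibroblasts against 0.111% and 0.0914% in skin fibroblasts, so every fascia library was below every skin library. In mural cells it was 0.107% and 0.123% in fascia against 0.104% and 0.0964% in skin, with fascia above skin. With doublets kept the order turned, with means of 0.0736% in fascia and 0.103% in skin. That fascia mean is over 400 and 753 cells, without the large cluster that lost its name. In blood endothelial cells it was 0.0564% and 0.0497% in fascia against 0.0567% and 0.0665% in skin, where fascia 1 and skin 1 nearly met. Macrophages or monocytes (0.0798% and 0.0792% in fascia, 0.0760% and 0.0904% in skin), lymphocytes (0.0933% and 0.103% in fascia, 0.0973% and 0.119% in skin) and dendritic cells (0.101% and 0.0986% in fascia, 0.0618% and 0.128% in skin) overlapped between the tissues. With 2 libraries against 2, an exact permutation test cannot give a p below 0.33, and none is given for these sums.

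**Figure D1:**
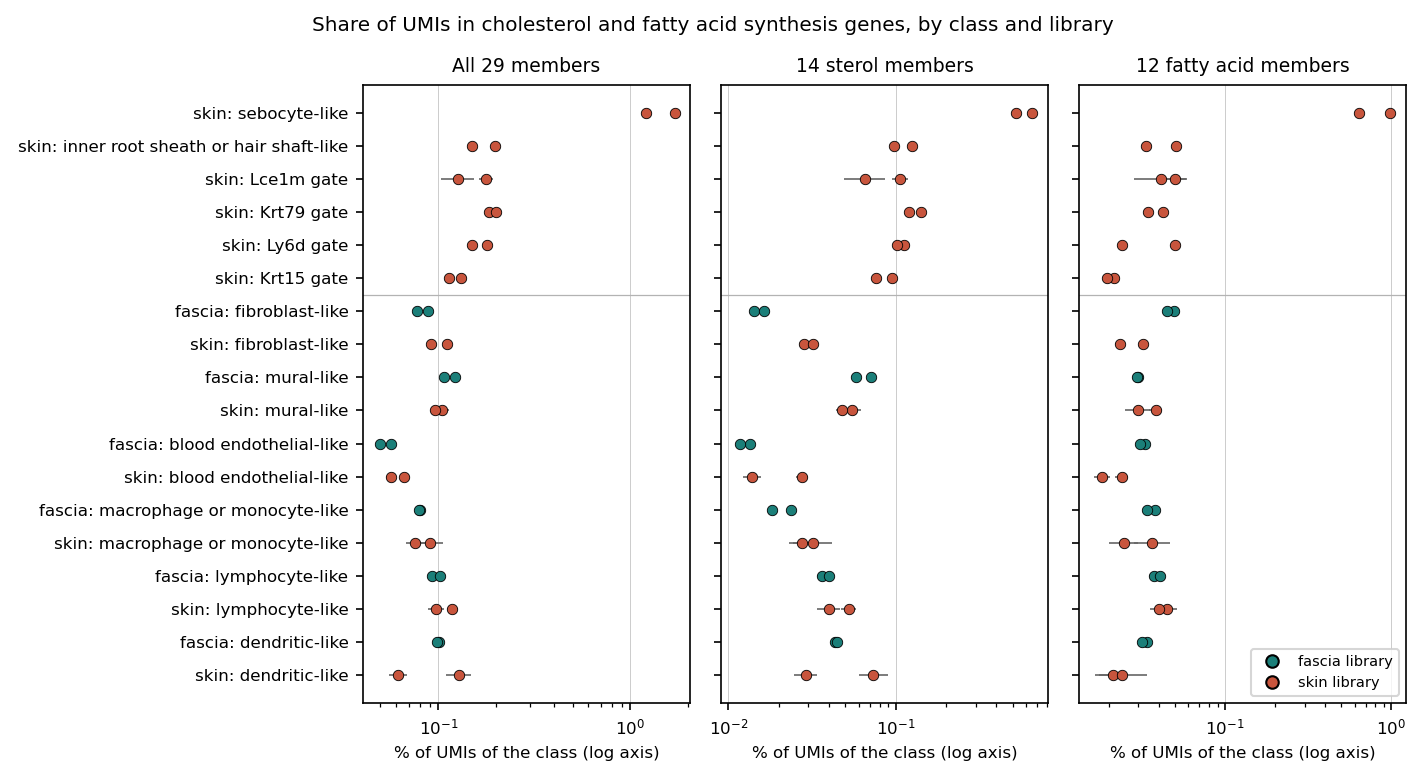
Percent of UMIs (log axis) taken by all 29 genes, the 14 sterol enzymes and the 12 fatty acid enzymes, in 3 panels, by class or gate, 1 point per library, with exact intervals for counting error. Skin sebocyte-like cells sit at 1.70% and 1.21% in the first panel, and the classes present in both tissues lie between 0.0497% and 0.128%.

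In fibroblasts the summed shares of the sterol and fatty acid enzymes ran in opposite directions. The sterol enzymes took 0.0143% and 0.0164% of UMIs in fascia fibroblasts against 0.0282% and 0.0319% in skin fibroblasts. The fatty acid enzymes took 0.0494% and 0.0448% in fascia fibroblasts against 0.0232% and 0.0322% in skin fibroblasts. Neither pair of tissues overlapped. The fatty acid sum differed mainly by Acly, Elovl1 and Fads1. Their means were 128, 128 and 93.4 CPM in fascia against 47.3, 48.9 and 59.2 CPM in skin. Of 9 fatty acid enzymes tested, 5 had a positive change, and Fasn, Acsl1 and Acsl3 had lower means in fascia.

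Sebocyte-like cells numbered 80 and 94 in skin libraries 1 and 2, and none was found in fascia. They were named from 11 detected markers, among them Mgst1 (6230 and 6085 CPM, against 99.3 and 120 CPM in keratinocytes), Cidea, a lipid droplet protein (967 and 1204 CPM, against 3.07 and 1.86 CPM), and Pparg, a lipogenic nuclear receptor (245 and 181 CPM, against 0.60 and 0.63 CPM). Elovl3 and Thrsp, which are lipid genes outside the 29, were among the genes that defined the cluster, so its levels are given as a description, with no test. Median depth differed greatly between the libraries, at 26266.5 UMIs per sebocyte-like cell in library 1 and 1825.5 in library 2. The cluster depends on the setting: at a coarser resolution, with doublets kept or with a floor of 1000 genes per cell, it took in a casein-led epithelial cluster, and the mean share of the 29 genes became 0.668%, 0.659% and 0.672%.

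All 14 sterol enzymes were higher in sebocyte-like cells than in keratinocytes in both libraries. Hmgcs1 stood at 2087 and 1503 CPM in sebocyte-like cells, against 179 and 195 CPM in keratinocytes, a ratio of 11.7 and 7.71. Idi1 stood at 1535 and 1422 CPM, against 182 and 222 CPM. The largest ratios of the group belonged to Hsd17b7, a sterol reductase (23.3 and 15.8), and Mvd, the mevalonate decarboxylase (18.8 and 17.1), and the smallest to Msmo1 (1.64) in library 1 and Sc5d, a late desaturase (1.35), in library 2. Among the regulators, Srebf1 stood at 286 and 226 CPM in sebocyte-like cells against 14.7 and 16.4 CPM in keratinocytes, a ratio of 19.5 and 13.8. Srebf2 stood at 116 and 115 CPM against 83.8 and 93.9 CPM, a ratio of 1.38 and 1.22. Insig1 stood at 176 and 141 CPM against 67.9 and 95.0 CPM.

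The fatty acid enzymes split within sebocyte-like cells: 6 of 12 had higher values than keratinocytes in both libraries, Acsl1, Acsl3, Elovl1 and Elovl6 had lower ones, and Fads1 and Fads2 could not be compared. Elovl1 was at 24.6 and 36.0 CPM in sebocyte-like cells against 61.8 and 40.3 CPM in keratinocytes, so nearly level in library 2. Scd, the stearoyl-CoA desaturase, stood at 5609 and 3803 CPM in sebocyte-like cells, against 5.6 and 3.09 CPM in keratinocytes, about 1002 and 1230 times as high. In skin libraries 1 and 2 these cells held 90.5% and 78.2% of all Scd UMIs and 69.4% and 51.1% of all Elovl4 UMIs, though only 26.3% and 8.13% of the UMIs of all 29 genes. Elovl4, which makes very long chains, stood at 1459 and 634 CPM against 24.9 and 8.36 CPM, and Elovl5, which lengthens polyunsaturated chains, at 1398 and 976 CPM against 19.2 and 17.7 CPM. Fasn, the fatty acid synthase, stood at 769 and 562 CPM against 22.0 and 16.5 CPM, while Acly and Acaca, the steps before it, stood 9.73 and 7.46 times and 5.07 and 3.67 times above keratinocytes. The ligases ran the other way. Acsl3 was at 13.4 and 12.46 CPM in sebocyte-like cells against 66.6 and 58.3 CPM in keratinocytes, and Acsl1 at 0.447 and 1.38 CPM against 27.0 and 25.8 CPM. Elovl6 was low in both (2.68 and 1.38 CPM against 10.8 and 7.05 CPM), and Fads1 had 0 and 1.38 CPM in sebocyte-like cells. Fads2 had 0 UMIs there, which allows up to 1.34 and 4.15 CPM (3 counts per library), above its 0.363 and 0.210 CPM in keratinocytes, so no difference was detectable at this depth.

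**Figure D2:**
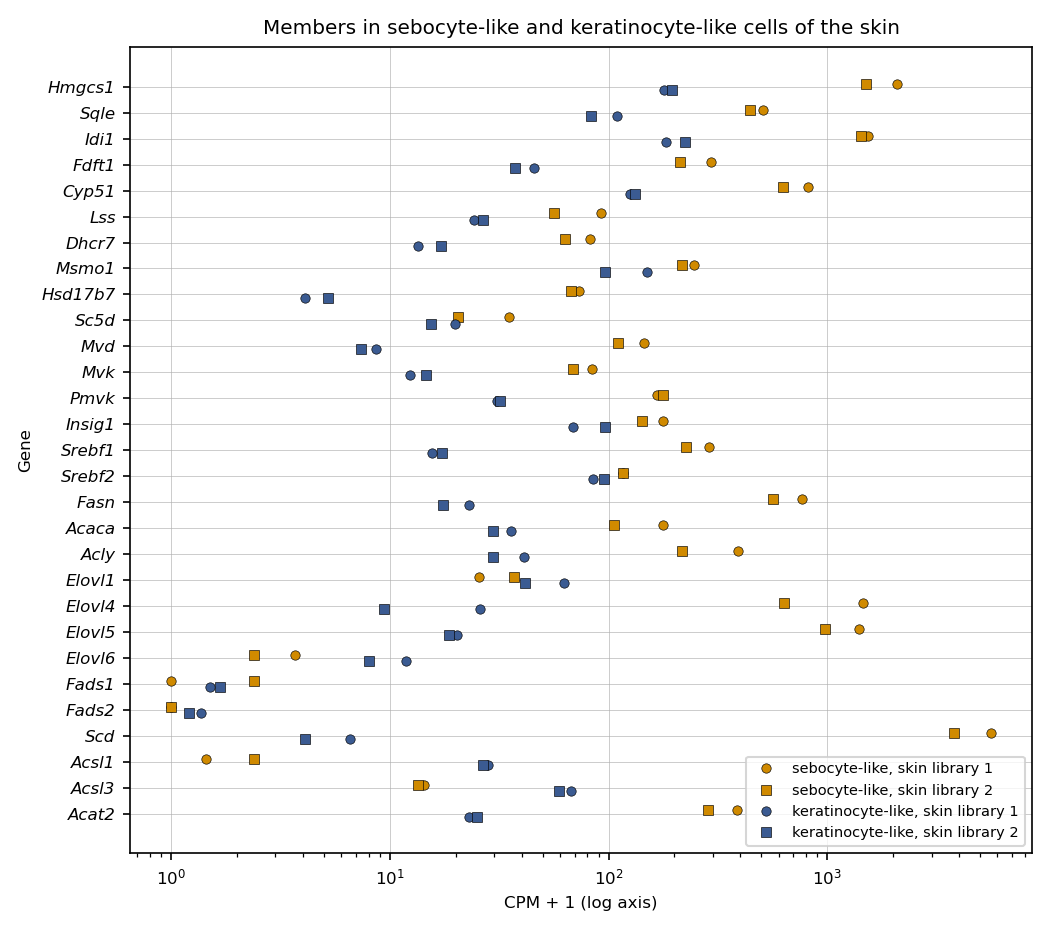
Level of each gene in sebocyte-like cells and in keratinocyte-like cells of skin (CPM + 1, log axis), 1 point per library. Scd lies above 3800 CPM in sebocyte-like cells and under 6 CPM in keratinocytes, and Acsl3 and Acsl1 lie on the keratinocyte side.

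Keratinocytes held 53.3% and 47.6% of all UMIs of the 29 genes in skin libraries 1 and 2. Set against the mean log level of 9 other skin classes, 8 of the 29 genes were higher in keratinocytes and 1 was lower (edgeR's quasi-likelihood test with library as a block, Benjamini-Hochberg adjusted p under 0.05), where 20.6% of 11978 genes passed in either direction (16.2% higher, 4.44% lower). The median log2 difference was 0.65 over the 29 genes and 0.22 over all genes tested. The higher genes were the sterol enzymes Msmo1, Dhcr7, Lss, Sqle and Cyp51, the regulator Srebf2, and the fatty acid enzymes Elovl4 and Acsl3. The lower gene was Elovl5. The genes were left out of the clustering, but genes that vary with them were not.

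Msmo1, a sterol C4-methyl oxidase, had 149 and 95.2 CPM in keratinocytes. Of the 9 other classes, sebocyte-like cells were higher (244 and 215 CPM) and the rest ran from 0 to 121 CPM, with only hair cells above 72 CPM. Its log2 difference was 2.08 ± 0.36 (SE, adjusted p = 0.000596). On log2(CPM + 1) the difference was 2.86 in skin library 1 and 1.16 in skin library 2 for Msmo1, and 1.94 and 0.52 for Sqle. Elovl5 had 19.2 and 17.7 CPM in keratinocytes, below each of the 9 other classes, and lymphocytes were at 219 and 211 CPM; its difference was -2.28 ± 0.38 (adjusted p = 0.000423). Elovl4 had 24.9 and 8.36 CPM, below the sebocyte-like cells but above the rest of the 9, which ran from 0 to 4.41 CPM. Its fitted difference of 4.34 ± 0.68 (adjusted p = 0.000538) depends on the prior count because 3 classes held no Elovl4 UMI; on log2(CPM + 1) it was 2.86 in skin library 1 and 1.48 in skin library 2. Acsl3 (0.90 ± 0.30, adjusted p = 0.0432) lost its call in 7 of 11 other settings, with adjusted p up to 0.301.

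Of the related genes that are not among the 29, the barrier lipid list had 3 higher and 0 lower of 13 tested: Cers3, a ceramide synthase (4.11), Sult2b1, the cholesterol sulfotransferase (3.29), and Sptlc2 (1.28). The sterol efflux list had 1 higher (Apoe, 2.41) and 3 lower of 8, among them Soat1, which esterifies cholesterol (-3.26). The other sterol genes had 3 higher and 1 lower of 15, with Pcyt2 1.61 higher and Stard4 -2.40. The other fatty acid genes had 2 higher (Elovl7, 3.28, and Tecr, 0.91) and 0 lower of 14.

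Within skin keratinocytes, cells were sorted by UMIs of a single gene after each cell was thinned to 2000 UMIs: Lce1m of the cornified layer (at least 1 UMI), Krt79 of the upper follicle (2), Ly6d (8) and Krt15, a basal and bulge keratin (36), each cell going to the first gate passed. The minimum was set so that at most 2% of non-epithelial cells passed, because 26.5% of such cells in skin library 2 carried a Ly6d UMI and 47.4% a Krt15 UMI. The gates held 28 and 20, 333 and 312, 342 and 1002, and 1384 and 1334 cells in libraries 1 and 2. A further 2759 and 1097 keratinocytes passed no gate, and 167 and 588 had too few UMIs. The gates mix clusters. Of the Lce1m gate cells, 23 lay in a Lce1m-led cluster (9 and 39 cells in all), 10 in a Krt24-led and 8 in an Il24-led cluster. Of the Krt15 gate cells, 2091 lay in the Krt24-led cluster and 482 in an Ifnk-led cluster that also carried Ly6d. The 29 genes took 0.178% and 0.127% of UMIs in the Lce1m gate, 0.183% and 0.20% in the Krt79 gate, 0.180% and 0.149% in the Ly6d gate, and 0.131% and 0.114% in the Krt15 gate. Within each library all 3 gates lay above the Krt15 gate, and the values of the Lce1m and Krt15 gates overlapped across libraries.

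In the Krt79 gate 7 of 27 tested genes were higher than in the Krt15 gate and none was lower, where 10.3% of 12324 genes passed in either direction (4.63% higher, 5.66% lower). The median log2 change was 0.79 over the members tested and -0.03 over all genes. In the Ly6d gate 9 of 27 were higher and none was lower than in the Krt15 gate, where 10.4% of all genes passed (3.69% higher, 6.67% lower), with medians of 0.56 and 0.01. Both comparisons use the same Krt15-gate cells. In the Lce1m gate 1 of 27 was higher and none lower than in the Krt15 gate, where 1.94% of genes passed (1.81% higher, 0.13% lower), with medians of -0.08 and -0.24. The tests were edgeR's quasi-likelihood test over sums per library and gate with library as a block.

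Lss, the lanosterol synthase, had 49.9 and 76.1 CPM in the Krt79 gate, 42.8 and 23.1 CPM in the Ly6d gate, and 9.15 and 11.3 CPM in the Krt15 gate. No Krt79 or Ly6d value overlapped the Krt15 values. The log2 change was 2.63 ± 0.38 for Krt79 against Krt15 (adjusted p = 0.00511) and 1.89 ± 0.37 for Ly6d against Krt15 (adjusted p = 0.0166). The Ly6d call was lost with the gate minimum raised by 1 UMI (adjusted p = 0.0572) and with doublets kept (adjusted p = 0.0528), and the change in skin library 2 alone was 1.03. Fdft1, the squalene synthase, had 80.7 and 60.6 CPM in the Krt79 gate, 68.4 and 40.1 CPM in the Ly6d gate, and 31.8 and 25.3 CPM in the Krt15 gate, again without overlap (1.31 ± 0.23, adjusted p = 0.0103, and 1.10 ± 0.23, adjusted p = 0.0195). The Ly6d gate was also higher for Cyp51 (1.24 ± 0.27), Sc5d (1.35 ± 0.27) and Mvd (1.53 ± 0.38), with adjusted p = 0.0237, 0.0169 and 0.0357. Of 10 other settings Cyp51 lost its call in 1 and Sc5d and Mvd in 4 each, with adjusted p up to 0.0911, 0.0977 and 0.113. Hmgcs1 had 266 and 401 CPM in the Krt79 gate and 184 and 152 CPM in the Krt15 gate, a change of 1.01 ± 0.28 that missed the threshold (adjusted p = 0.0563).

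Elovl4 had 256 and 232 CPM in the Lce1m gate, 67.3 and 38.8 CPM in the Krt79 gate, 95.4 and 6.75 CPM in the Ly6d gate, and 0.634 and 1.95 CPM in the Krt15 gate. It was the only one of the 27 called in the Lce1m gate against the Krt15 gate (7.14 ± 1.16, adjusted p = 0.0152). The Lce1m values rest on 74 and 18 UMIs in 6 of 28 and 5 of 20 cells, and 1 cell gave 24.3% and 44.4% of them; 0.968% and 0.238% of skin fibroblasts carried an Elovl4 UMI, at median depths of 12847.5 and 6256.5 UMIs, against 10802 and 2871.5 UMIs in the gate. The Krt79 gate (5.19 ± 1.01, adjusted p = 0.0152) and the Ly6d gate (4.91 ± 1.04, adjusted p = 0.0212) were also higher than the Krt15 gate. The Ly6d change was 7.23 in skin library 1 and 1.79 in skin library 2, and it missed the threshold with the gate minimum raised by 1 UMI (adjusted p = 0.0769) and with doublets kept (adjusted p = 0.0593). The Krt79 change missed it with the raised minimum (adjusted p = 0.0503) and with no replicate block (adjusted p = 0.0591).

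Fasn had 39.0 and 27.7 CPM in the Krt79 gate, 31.1 and 18.6 CPM in the Ly6d gate, and 11.3 and 10.8 CPM in the Krt15 gate, higher in both tests (1.57 ± 0.30, adjusted p = 0.0148, and 1.33 ± 0.30, adjusted p = 0.0267). Acsl1, which activates long chains, was likewise higher in the Krt79 gate (1.36 ± 0.36) and the Ly6d gate (1.46 ± 0.36). Of 10 other settings the Acsl1 call was lost in 5 for the Krt79 gate and in 3 for the Ly6d gate (adjusted p up to 0.13 and 0.091), and in skin library 2 alone the Ly6d change was 0.55. Elovl6 (1.95 ± 0.42) and Elovl1 (1.25 ± 0.31) passed for the Krt79 gate, and Acsl3 (1.08 ± 0.25) for the Ly6d gate, where it had 121 and 80.2 CPM against 51.8 and 56.2 CPM in the Krt15 gate. Whether a gene differed between the Krt79 and Ly6d gates was not tested. Scd stayed between 0 and 13.8 CPM in every gate.

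Between the Lce1m gate and the Ly6d gate 0 of 27 genes passed edgeR's test, where 3.36% of all genes passed (2.36% higher, 0.998% lower); 7 had an unadjusted p under 0.05 and DESeq2 called 1. Of these 7, Elovl4 had the higher value in the Lce1m gate (2.23) and Cyp51, Idi1, Sc5d, Fasn, Acsl1 and Acsl3 had the lower, from -1.22 to -3.49. The Lce1m sums held 288891 and 77449 UMIs, and in a simulation of this comparison 38% of genes changed 4-fold were recovered. The barrier lipid list had 4 of 17 higher in the Lce1m gate than in the Krt15 gate, among them Alox12b, a lipoxygenase of the barrier (38.1 and 38.7 CPM against 0 UMIs). The same list had 4 of 17 higher in the Krt79 gate than in the Krt15 gate, led by Degs2 (6.25, a value that depends on the prior count because Degs2 was at 0.181 and 0.178 CPM in the Krt15 gate) and Sult2b1 (3.94), and 2 of 17 in the Ly6d gate. Of 13 other fatty acid genes, the Krt79 gate was higher for Me1 (3.99) and Acsl5 (1.68), and of 15 other sterol genes 2 were higher, among them Tm7sf2 (1.80). The Ly6d gate had Tm7sf2 higher (1.31) and Insig2 lower (-1.37).

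**Figure D3:**
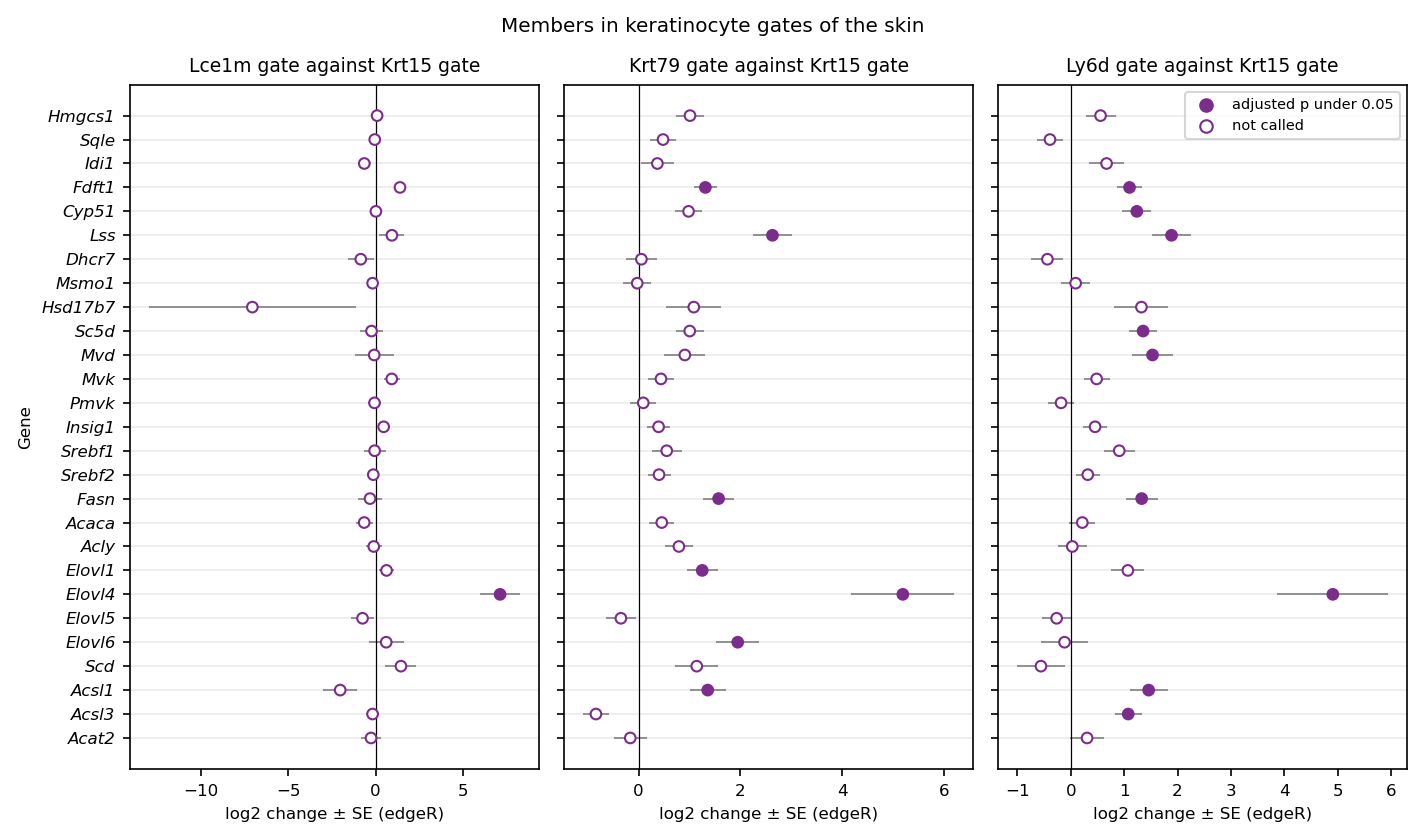
Log2 change with its SE of each of 27 genes in the Lce1m, Krt79 and Ly6d gates, each against the same Krt15 gate, in 3 panels; filled points passed the test. Elovl4 lies farthest right in every panel, at 7.14, 5.19 and 4.91.

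Fascia was then compared with skin inside each of 6 classes that had at least 20 cells in every library, by edgeR's quasi-likelihood test on UMIs summed per library. The log2 changes are fascia over skin on the scale of edgeR's TMM normalization, which lies 0.06 to 0.47 below plain CPM in these comparisons (median over genes, -0.06 in lymphocytes and -0.47 in blood endothelial cells). Within most classes the cells of the tissues were spread differently over clusters. Fascia fibroblasts were mainly in a Mrgprg- and Pi16-bearing cluster (1820 and 424 cells in fascia, 0 and 1 in skin). An Igfbp2-led cluster held 301 of 310 and 147 of 420 skin fibroblasts and 0 fascia cells. A Myoc- and Sfrp2-bearing cluster was shared, with 9 and 271 skin and 580 and 224 fascia fibroblasts. The skin libraries thus also differed from each other in fibroblast clusters. Skin blood endothelial cells were mostly in a Csf3-, Selp- and Sele-bearing cluster (120 and 443 cells, none from fascia), and skin mural cells in a Xirp1-led cluster (0 and 6 cells in fascia, 51 and 221 in skin). A Fcnb-led cluster held 49 and 271 fascia and 43 and 28 skin macrophages or monocytes, and a Rnase6-led cluster 32 and 211 fascia and 73 and 21 skin dendritic cells; most fascia cells of both classes lay elsewhere. Of the lymphocytes, 44 and 69 skin cells formed a Gzmf-led cluster with no fascia cell. A Ccl5-led cluster held 29 and 76 skin and 140 and 393 fascia lymphocytes. The tests sum over a whole class, so they cannot tell a tissue difference from one between clusters. Clusters with cells of both tissues were not compared on their own. Krt5 UMIs also occurred in other skin classes. Whether free RNA, doublets or mixed clusters brought them was not tested. Krt5 was at 0.775% to 5.64% of its keratinocyte level in skin fibroblasts, mural cells, macrophages and dendritic cells of either library. Endothelial cells of skin library 1 also lay in that range. In endothelial cells of skin library 2 and in skin lymphocytes it was at 9.25% to 16.4%. Where keratinocyte RNA was subtracted, the keratinocyte profile scaled to Krt5 was taken from the skin sums.

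Fascia fibroblasts had a lower summed share of the sterol enzymes than skin fibroblasts, though not every enzyme was lower. Of 26 genes tested, 6 were lower and 2 higher, where 9.64% of 12419 genes passed (2.9% higher, 6.74% lower); the median change was -0.90 over the members tested and 0.04 over all genes. Of the 14 sterol enzymes 4 were lower and none higher, and of 9 fatty acid enzymes 2 were lower and 2 higher. A positive change that did not pass was seen in 3 of the 14 sterol enzymes. Their means were 8.80 CPM in fascia against 4.05 CPM in skin for Dhcr7, 14.3 against 8.92 CPM for Mvk and 3.99 against 1.47 CPM for Hsd17b7. Elovl4, Elovl6 and Scd were too low to be tested.

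Idi1, the isopentenyl isomerase, had 11.8 and 20.2 CPM in fascia fibroblasts, against 71.9 and 87.0 CPM in skin fibroblasts (-2.67 ± 0.32, adjusted p = 0.0231). Lss had 3.71 and 4.11 CPM in fascia against 14.1 and 16.9 CPM in skin (-2.35 ± 0.23, adjusted p = 0.0193). Hmgcs1 had 17.2 and 22.5 CPM in fascia against 58.7 and 52.1 CPM in skin (-1.86 ± 0.27, adjusted p = 0.0296). In these 3 genes every fascia library was below every skin library, as it was for Sqle, the squalene epoxidase (8.26 and 8.74 CPM against 14.3 and 18.3 CPM, -1.29 ± 0.20), Acsl3 (6.66 and 10.9 CPM against 28.7 and 22.9 CPM, -1.96 ± 0.38) and Fasn (12.2 and 12.3 CPM against 17.6 and 21.5 CPM, -1.03 ± 0.18).

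The genes that rose in fascia fibroblasts were Acly, the ATP citrate lyase, and Elovl1, an elongase of saturated very long chains. Acly had 135 and 121 CPM in fascia against 35.5 and 59.2 CPM in skin (1.11 ± 0.21, adjusted p = 0.0437), and Elovl1 had 139 and 117 CPM against 44.2 and 53.5 CPM (1.03 ± 0.17, adjusted p = 0.0377), both without overlap. Among the regulators Insig1 had 212 and 120 CPM in fascia against 547 and 215 CPM in skin (-1.64 ± 0.63, adjusted p = 0.163), Srebf1 9.64 and 9.26 CPM against 16.0 and 15.5 CPM (adjusted p = 0.0509) and Srebf2 23.6 and 32.6 CPM against 36.6 and 43.3 CPM (adjusted p = 0.0876). All 3 were lower in every fascia library and none passed.

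Of the other sterol genes, 2 of 15 fell in fascia fibroblasts, among them Lpin1 (-2.72). Of 9 efflux genes only Abca1, the cholesterol exporter, fell (-1.11), and of 12 other fatty acid genes Hacd1 rose (1.26) with Acsl6, which had at most 0.235 CPM in skin. The calls in fibroblasts depend on single libraries: of the 29 genes 0 passed without fascia library 1, 1 without fascia library 2, 3 without skin library 1 and 14 without skin library 2. DESeq2 called 13. With keratinocyte RNA subtracted, Acsl3 (adjusted p = 0.0547) and Acly (adjusted p = 0.0523) missed the threshold.

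**Figure D4:**
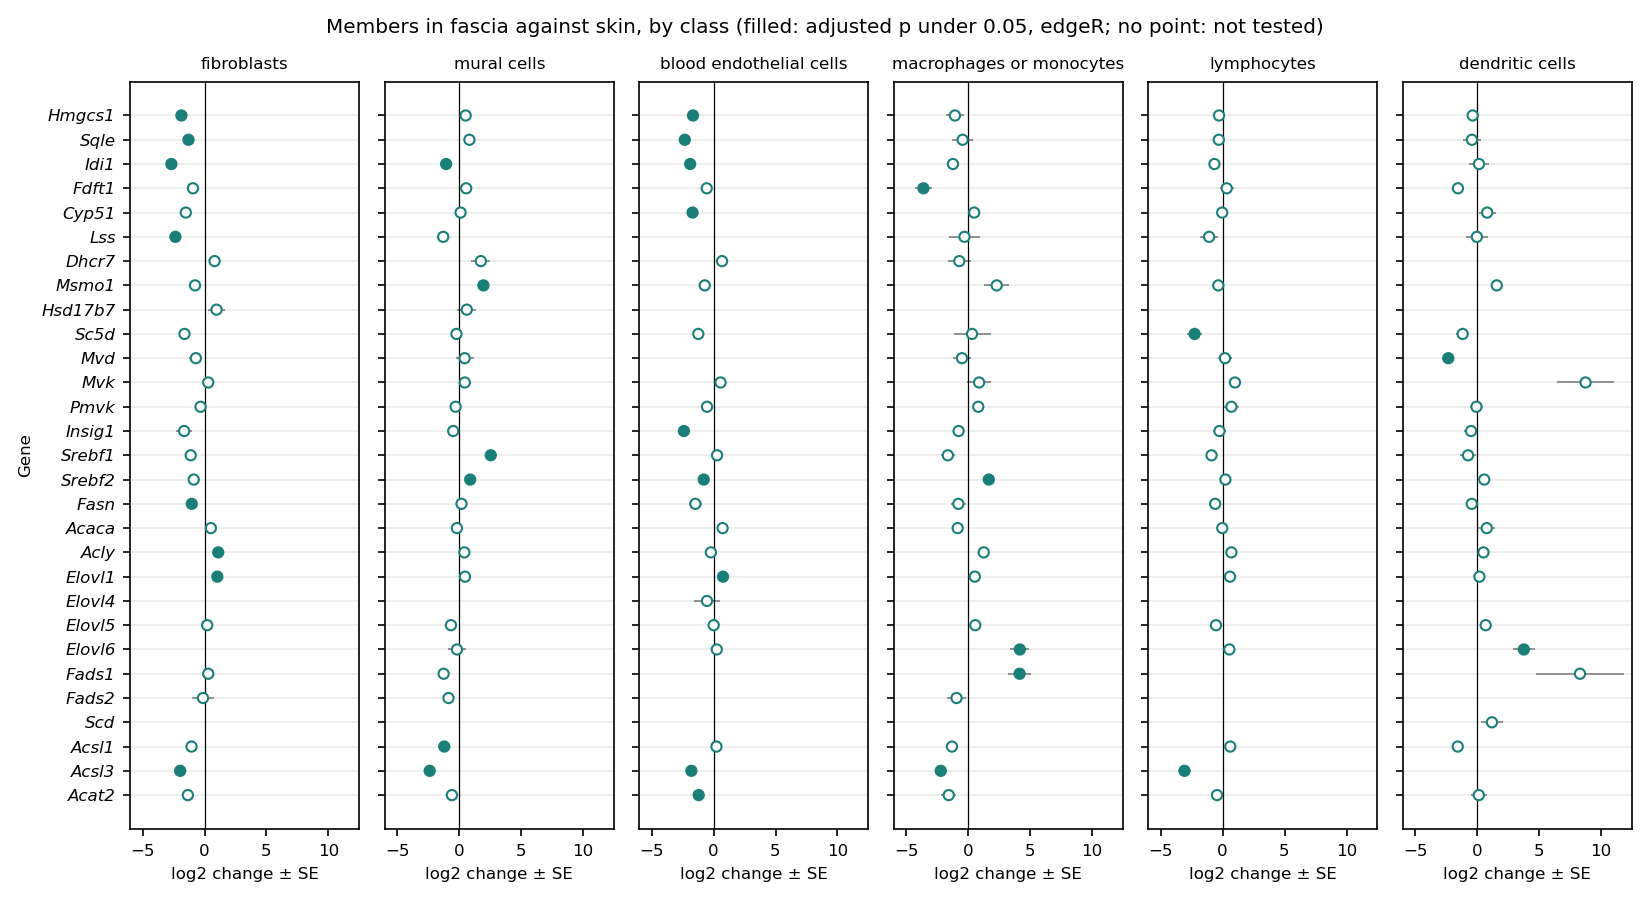
Log2 change of each gene, fascia over skin, in 6 classes, with its SE. Filled points passed the test. Acsl3 lies below 0 in all 5 classes where it was tested, and Msmo1 lies above 0 in mural cells and below 0 in fibroblasts.

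Mural cells, the pericytes and smooth muscle cells of vessels, had 3 genes higher and 3 lower of 27 in fascia, where 15.7% of 12448 genes passed (6.27% higher, 9.46% lower); the median change was 0.13 over the members tested and 0.11 over all genes. Msmo1 had 91.5 and 115 CPM in fascia mural cells, against 24.3 and 18.1 CPM in skin mural cells (1.97 ± 0.27, adjusted p = 0.00321). Srebf1 had 17.5 and 18.6 CPM against 2.21 and 2.37 CPM (2.56 ± 0.49, adjusted p = 0.0116), the skin values resting on 1 and 3 UMIs. Srebf2 had 82.7 and 97.8 CPM against 44.2 and 33.1 CPM (0.90 ± 0.24, adjusted p = 0.0426). In these 3 genes both fascia libraries lay above both skin libraries.

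The lower genes in fascia mural cells were Acsl3 (22.5 and 25.9 CPM against 108 and 87.6 CPM, -2.37 ± 0.21, adjusted p = 0.000496), Idi1 (135 and 164 CPM against 277 and 200 CPM, -1.04 ± 0.24, adjusted p = 0.0254) and Acsl1 (12.8 and 12.2 CPM against 17.7 and 23.7 CPM, -1.19 ± 0.29, adjusted p = 0.0299). Idi1 thus fell while Msmo1, further along the same pathway, rose. Hmgcs1 (105 and 143 CPM in fascia against 61.9 and 67.9 CPM in skin) and Sqle (40.3 and 51.8 CPM against 17.7 and 20.5 CPM) had higher values in both fascia libraries and did not pass (adjusted p = 0.174 and 0.0826). With doublets kept, the change was 0.21 for Msmo1 (adjusted p = 0.695), 0.27 for Srebf2 (adjusted p = 0.521) and 1.92 for Srebf1 (adjusted p = 0.115). The fascia class then held 400 and 753 cells, against 1255 and 1964 in the main setting, because a large mural-scoring cluster lost its name. Whether doublets or the lost cluster moved these values was not tested. Without fascia library 1 or fascia library 2, 2 genes passed in each case. Among related genes, Nr1h3, a sterol-sensing nuclear receptor, rose (60.4 and 58.1 CPM against 8.85 and 8.68 CPM, 2.37), Acss2, the acetyl-CoA synthetase, rose (1.67), and Me1 (-1.77) and Sptlc2 (-1.15) fell.

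Blood endothelial cells had 8 genes lower and 1 higher of 23 in fascia, where 26.1% of 11352 genes passed (10.8% higher, 15.2% lower); the median change was -0.55 over the members tested and 0.06 over all genes. Insig1 had 50.8 and 33.3 CPM in fascia against 211 and 90.0 CPM in skin (-2.39 ± 0.49, adjusted p = 0.0178). Idi1 had 17.0 and 13.8 CPM against 28.2 and 54.9 CPM (-1.89 ± 0.27, adjusted p = 0.00575), and Sqle 3.85 and 4.06 CPM against 9.95 and 19.2 CPM (-2.32 ± 0.37, adjusted p = 0.00855). Both fascia libraries were lower in all 3. Insig1 missed the threshold at resolution 2.0 (adjusted p = 0.0558), and its change was -1.41 without skin library 1 and -2.98 without skin library 2. For Hmgcs1 (19.6 and 13.7 CPM against 19.9 and 57.1 CPM, -1.66 ± 0.39) and Cyp51 (14.8 and 11.1 CPM against 14.9 and 46.7 CPM, -1.69 ± 0.42), fascia library 1 and skin library 1 were nearly level, and without skin library 2 the changes were -0.92 (adjusted p = 0.081) and -0.86 (adjusted p = 0.0989).

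Acsl3 (-1.79 ± 0.41), Acat2, which makes acetoacetyl-CoA for the mevalonate pathway (-1.20 ± 0.34), and Srebf2 (-0.79 ± 0.21) were also lower, Srebf2 with overlapping CPM (36.2 and 31.6 CPM in fascia, 32.1 and 53.3 CPM in skin). Elovl1 was higher in fascia (104 and 91.0 CPM against 34.3 and 48.9 CPM, 0.76 ± 0.18, adjusted p = 0.0278). These results moved when keratinocyte RNA was subtracted. Insig1, Idi1 and Elovl1 then passed (adjusted p = 0.0198, 0.0335 and 0.0394), while Hmgcs1 (-0.80, adjusted p = 0.194), Sqle (-0.99, adjusted p = 0.165), Cyp51 (-1.04, adjusted p = 0.149), Acsl3, Acat2 and Srebf2 did not. Of the 29 genes, 5 passed without skin library 2, 5 without fascia library 1 and 4 without fascia library 2. Of 14 other sterol genes 5 fell, among them Lpin1 (-2.21) and Stard4 (-1.35), and Mylip, a ubiquitin ligase, rose (1.37). Of 12 other fatty acid genes Acacb, the mitochondrial acetyl-CoA carboxylase, rose (12.99 and 12.7 CPM in fascia against 0.553 and 1.65 CPM in skin) and Acsl4 (-1.99) and Acsl5 (-0.88) fell. Of 11 barrier lipid genes 4 fell, led by Sptlc2 (-2.10), and of 8 efflux genes Nr1h3 rose (1.34) and Npc2 fell (-0.77).

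The skin libraries held few macrophages or monocytes, with 1383 and 1352 cells in fascia against 45 and 35 in skin, so skin levels there rest on few UMIs. Of 26 genes 3 were higher and 2 lower in fascia, where 4.91% of 11625 genes passed (1.29% higher, 3.62% lower); the median change was -0.47 over the members tested and 0.21 over all genes. Acsl3 had 17.0 and 20.6 CPM in fascia against 64.4 and 89.8 CPM in skin (-2.20 ± 0.31, adjusted p = 0.00845), and Srebf2 had 85.9 and 95.5 CPM against 16.7 and 39.3 CPM (1.67 ± 0.39, adjusted p = 0.0477), with no overlap in either. Elovl6, which lengthens palmitate, had 36.2 and 36.0 CPM in fascia against 2.38 and 0 CPM in skin, and Fads1, the delta-5 desaturase, 41.3 and 30.8 CPM against 0 and 5.61 CPM. Both rest on 1 UMI over the skin libraries: the pooled ratios were 21.6 (exact 95% interval 3.86 to 853) and 21.8 (3.90 to 860), and the fitted changes of 4.18 (adjusted p = 0.0206) and 4.16 (adjusted p = 0.0395) depend on the prior count. Fdft1 had 5.06 and 12.6 CPM in fascia against 131 and 22.5 CPM in skin (-3.60 ± 0.69, adjusted p = 0.0237), the skin values coming from 55 and 4 UMIs. Without skin library 1 its change was -1.43 (adjusted p = 0.664) and 0 of the 29 genes passed; without either fascia library 2 passed. Of the related genes Npc1, a lysosomal sterol transporter (-1.94), and Ugcg, the glucosylceramide synthase (-2.08), fell.

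Lymphocytes had 2 genes lower and none higher of 23, where 18.1% of 9724 genes passed (7.23% higher, 10.9% lower), with medians of -0.25 over the members tested and 0.05 over all genes. Acsl3 had 6.14 and 3.59 CPM in fascia lymphocytes against 54.2 and 25.0 CPM in skin lymphocytes (-3.08 ± 0.51, adjusted p = 0.00696). Sc5d had 12.7 and 13.1 CPM against 108 and 22.0 CPM (-2.26 ± 0.59, adjusted p = 0.035), and its change without skin library 1 was -0.90 (adjusted p = 0.156). Neither gene overlapped between the tissues. Without skin library 2, 4 of the 29 genes passed. Of 7 efflux genes 3 fell, Abca1 (-3.45), Apoe (-3.35) and Abcg1 (-1.08).

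Dendritic cells, with 213 and 770 cells in fascia against 73 and 23 in skin, had 1 gene higher and 1 lower of 24, where 7.56% of 9002 genes passed (2.27% higher, 5.3% lower), with medians of 0.14 and 0.22. Mvd had 18.2 and 22.6 CPM in fascia against 106 and 29.2 CPM in skin (-2.32 ± 0.47, adjusted p = 0.0319). Elovl6 had 22.7 and 28.7 CPM against 1.89 and 0 CPM, again 1 skin UMI, with a pooled ratio of 18.3 (exact 95% interval 3.26 to 724). Without skin library 1, Mvd was at -0.49 (adjusted p = 0.763) and 1 gene passed; without skin library 2, 9 passed, and without either fascia library none passed edgeR's test. Hmgcs1, Sqle, Insig1, Srebf1 and Fasn overlapped between the tissues. Of the related genes Mylip (-2.12) and Abhd5 (-1.57) fell.

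Acsl3, a ligase of the endoplasmic reticulum and lipid droplets, was lower in fascia in all 5 classes where it was tested, by -1.79 to -3.08, and its level in dendritic cells was too low for a test. With keratinocyte RNA subtracted, its edgeR change was -1.26 in blood endothelial cells (adjusted p = 0.104) and -1.92 in fibroblasts (adjusted p = 0.0547). Neither passed, while Acsl3 still passed in mural cells (-2.38), macrophages (-2.21) and lymphocytes (-2.90). A joint test of whether the tissue effect differed among the 6 classes passed for 12 of 28 genes, where 24.7% of 14274 genes passed. It passed for Srebf1, Srebf2 and Msmo1 (adjusted p = 0.000557, 0.000541 and 0.00132) and for Hmgcs1 and Sqle (adjusted p = 0.017 and 0.0198), and not for Acsl3 (adjusted p = 0.469), Elovl1 (adjusted p = 0.701) or Idi1 (adjusted p = 0.0515). Msmo1 rose by 1.97 in mural cells; its values that did not pass were 2.31 in macrophages (0 and 2 skin UMIs), -0.76 in fibroblasts and -0.71 in blood endothelial cells, where it was 0.63 with keratinocyte RNA subtracted. Hmgcs1 was lower in fibroblasts (-1.86) and blood endothelial cells (-1.66, and -0.80 without a call after keratinocyte RNA was subtracted). Its value of 0.53 in mural cells did not pass.

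**Figure D5:**
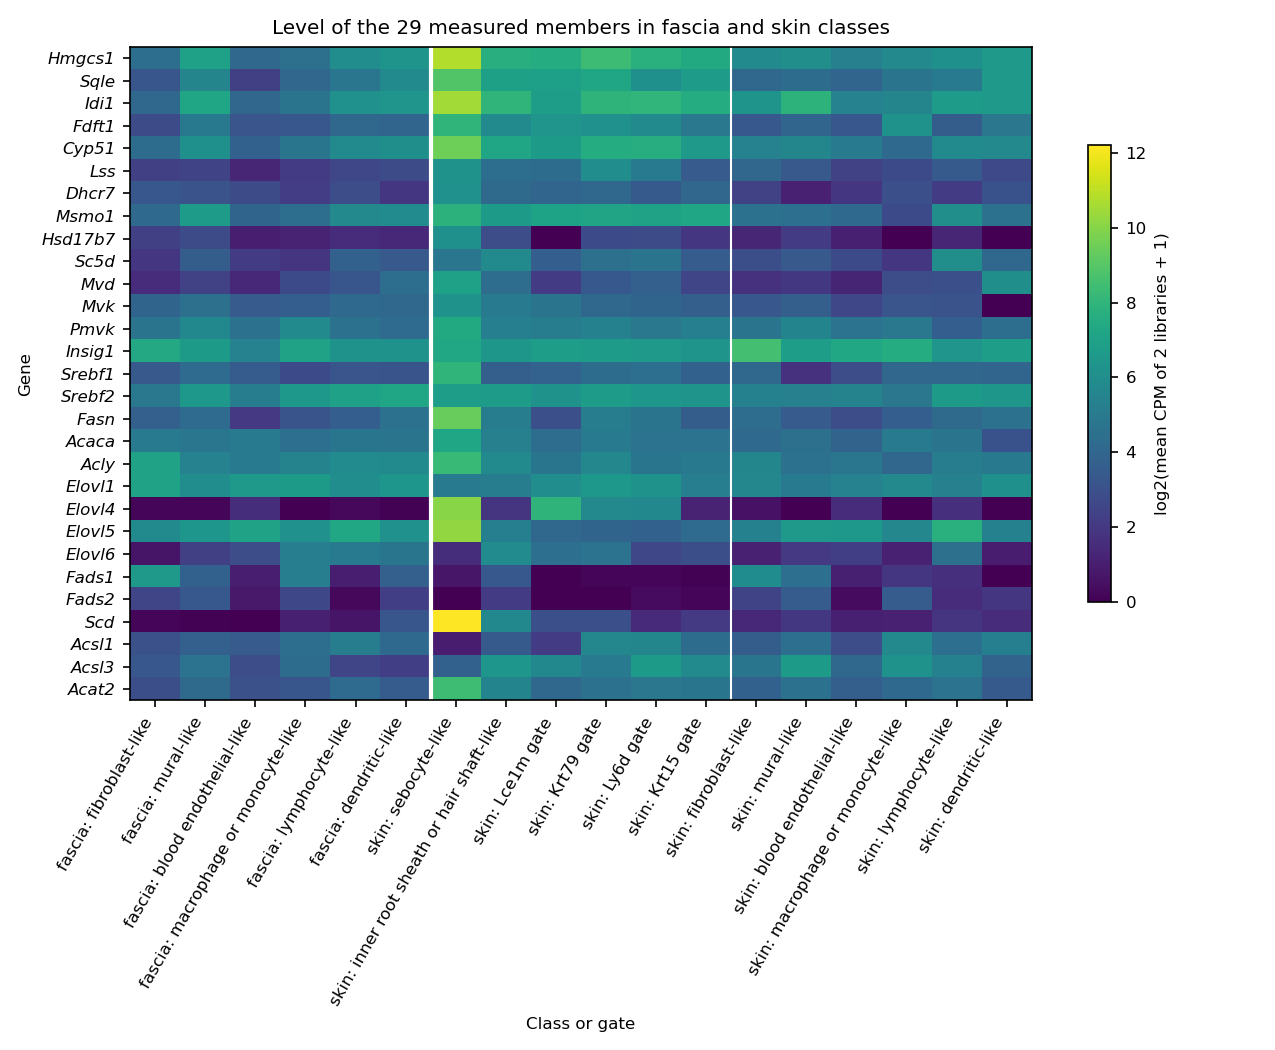
Mean level (CPM, log colour scale) of each of the 29 genes in 18 combinations of class or gate and tissue. Sebocyte-like cells hold the highest value for 13 of 14 sterol enzymes, and fascia fibroblasts hold it for Elovl1 and Fads1.

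Across 18 combinations of class or gate and tissue, 13 of 14 sterol enzymes had their highest mean level in sebocyte-like cells. Sc5d was highest in skin lymphocytes (65.2 CPM, from 108 and 22.0 CPM, so not beyond the spread from the hair cells at 54.4 CPM). For Lss the Krt79 gate (mean 63.0 CPM) lay within the spread of the sebocyte-like cells (91.1 and 55.4 CPM). Insig1 was highest in skin fibroblasts (381 CPM), Srebf2 in fascia dendritic cells (147 CPM) and Srebf1 in sebocyte-like cells (256 CPM). Of the 12 fatty acid enzymes 6 were highest in sebocyte-like cells. The others were spread: Elovl1 (128 CPM) and Fads1 (93.4 CPM) peaked in fascia fibroblasts, Elovl6 (57.5 CPM) in hair cells, Fads2 (10.8 CPM) in skin mural cells, Acsl1 (52.8 CPM, from 21.5 and 84.2 CPM) in skin macrophages and Acsl3 (101 CPM) in the Ly6d gate. For Fads2 the skin macrophages (10.8 CPM) and for Acsl3 the skin mural cells (98.0 CPM) lay within the spread of the highest class. So did fascia macrophages (36.1 CPM) for Elovl6, where the lower hair cell library was at 29.2 CPM. For Acsl1 the Krt79 gate (49.1 CPM) also lay within that spread. Mvk, Pmvk, Hsd17b7, Acaca and Fads2 passed no test in any comparison. In the 6 shared classes of fascia, Acaca ran from 18.9 to 33.5 CPM, Mvk from 9.64 to 22.5 CPM, Pmvk from 16.1 to 63.0 CPM, Hsd17b7 from 0.80 to 7.60 CPM and Fads2 from 0 to 9.87 CPM. Fibroblasts held 82.4% and 51.4% of all Fads1 UMIs in fascia libraries 1 and 2.

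The sterol enzymes followed one another across these 18 means. Ranked by Spearman's rho with the summed level of the other sterol enzymes, the closest were Hmgcs1 (0.98), Cyp51 (0.93), Sqle (0.92), Idi1 (0.92) and Msmo1 (0.89), and without sebocyte-like cells Hmgcs1 was at 0.97 over 17 means. Dhcr7 (0.67), Mvd (0.59), Mvk (0.58), Hsd17b7 (0.57) and Pmvk (0.44) followed less closely. Of the fatty acid enzymes Scd (0.75) and Fasn (0.66) ranked highest and Fads1 (-0.51) and Fads2 (-0.49) lowest, with Acaca at 0.25, Elovl5 at -0.37 and Insig1 at -0.13. These values are a description: the means share libraries and depth, and no p is given.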

How the data were processed

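The deposited matrices hold counts of UMIs for each gene in each barcode, made by the authors with Cell Ranger 6.0.1, STAR and the rat build mRatBN7.2, per the submitters' processing notes, which also list GRCh38.p13; the matrix headers name Cell Ranger 7.0.0. Strand settings are not given in the sources used here. Barcodes were kept from 500 detected genes upward if mitochondrial genes took no more than 20% of UMIs. Scrublet marked under 0.5% of cells in skin, so there the top-scoring share (0.8% per 1000 cells) was removed, and in fascia its threshold was used. Kept cells were clustered with Scanpy 1.11.5 and leidenalg 0.10.2 (2000 variable genes, 30 components, resolution 1.0) and named from 210 markers, of which 198 matched. Counts were summed per library and class or gate (at least 20 cells) and tested with edgeR 4.0.16 in R 4.3.3, with Benjamini-Hochberg adjustment over all genes tested and a threshold of 0.05. DESeq2 1.42.0, RLE scaling, no filter, other clusterings, doublets kept, other gates, a replicate block and left-out libraries were alternatives. Named genes are all called members, with 7 genes (Hmgcs1, Sqle, Insig1, Srebf1, Srebf2, Fasn, Scd) nameable throughout, and at most 4 called genes per related list. The members, lists and tests were chosen with earlier results of these data known. On data simulated with 200 genes changed 4-fold, edgeR recovered 53.5% (macrophages) to 89.5% (blood endothelial cells) in the tissue comparisons and 26.5% for the Lce1m gate against the Krt15 gate. Depth per library was 83852172 to 95777810 UMIs; intervals cover counting error only. Some called genes of the related lists are not reported here.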

Additional observations from a re-analysis of the deposited data

Results flagged for a closer look

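A joint edgeR test asked, for each of 28 genes, whether the difference between fascia and skin varied among fibroblasts, mural cells, blood endothelial cells, macrophages or monocytes, lymphocytes and dendritic cells, with library as a block. It was added after the data were seen, used counts with no keratinocyte RNA subtracted, and passed for 12 genes, where 24.7% of 14274 genes passed. The sterol enzymes were Msmo1 (adjusted p = 0.00132), Fdft1 (0.00803), Cyp51 (0.00973), Hmgcs1 (0.017) and Sqle (0.0198). The regulators were Srebf2 (0.000541) and Srebf1 (0.000557). The fatty acid enzymes were Elovl6 (0.00243), Scd (0.00348), Fads1 (0.0208), Acly (0.0281) and Acsl1 (0.047). Only some of the differences within a class passed their own test. Srebf1 rose by 2.56 on the log2 scale in fascia mural cells, and its values of -1.63, -1.11 and -0.89 in macrophages, fibroblasts and lymphocytes did not pass. Srebf2 rose by 1.67 in macrophages and 0.90 in mural cells and was lower in blood endothelial cells (-0.79). With keratinocyte RNA subtracted, its blood endothelial value was -0.62 and did not pass (adjusted p = 0.0667), and its value of -0.87 in fibroblasts did not pass. Cyp51 was lower in blood endothelial cells (-1.69), and its values of -1.51 in fibroblasts and 0.81 in dendritic cells did not pass. With keratinocyte RNA subtracted, the blood endothelial values of Cyp51 (-1.04), Hmgcs1 (-0.80) and Sqle (-0.99) did not pass (adjusted p = 0.149, 0.194 and 0.165). Acly rose by 1.11 in fibroblasts, and its values of 1.26 in macrophages and -0.21 in blood endothelial cells did not pass. Fdft1 was lower in macrophages (-3.60; -1.43 with adjusted p = 0.664 without skin library 1), and its value of 0.58 in mural cells did not pass. Elovl6 and Fads1 each had 1 UMI over the skin macrophages of both libraries, and Scd was tested on its own in dendritic cells only. Acsl1 was lower in mural cells (-1.19), and its values of 0.62 in lymphocytes and -1.56 in dendritic cells did not pass.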

How the results depend on the processing

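Among genes called in a comparison, no value changed sign in that comparison under the alternatives run: 534 values kept their call and 153 lost it. Values that had not passed were not tallied, and in blood endothelial cells Msmo1 (-0.71) and Fdft1 (-0.55) became 0.63 and 0.15 with keratinocyte RNA subtracted. Counts of called genes that moved were, in fibroblasts (8), 13 with DESeq2 and 15 with no filter, and 3 with the replicate block; in blood endothelial cells (9), 3 with keratinocyte RNA subtracted, an alternative chosen after seeing the data; in dendritic cells (2), 1 at resolution 0.5, with DESeq2, with RLE and with keratinocyte RNA subtracted, 6 at resolution 2.0, 7 with no filter and 0 with the replicate block. In the Krt79 gate (7) it was 11 with no filter, 1 with no replicate block and 14 with gates given to whole clusters. In the Ly6d gate (9) it was 2 with no replicate block, 4 with thinning to 1000 UMIs, 3 with a gate minimum 1 UMI higher, 14 with whole clusters and 4 with doublets kept. For the Lce1m gate it was 2 with DESeq2 and with no filter against the Krt15 gate (1), and 1, 5 and 3 with DESeq2, no filter and thinning to 1000 UMIs against the Ly6d gate (0). Leaving out each library gave 0 to 14 in fibroblasts, 2 to 8 in mural cells, 4 to 9 in blood endothelial cells, 0 to 6 in macrophages, 2 to 4 in lymphocytes and 0 to 9 in dendritic cells; the lone library of a tissue was assumed to vary like the others. Mean shares of the 29 genes moved for sebocyte-like cells (1.45%) to 0.668% at resolution 0.5, 0.659% with doublets kept and 0.672% with at least 1000 genes per cell. In fascia they moved to 0.0736% (mural) and 0.0593% (blood endothelial) with doublets kept, to 0.0811%, 0.0783% and 0.0785% (macrophages) at resolution 0.5, with doublets kept and with at least 1000 genes, and to 0.0799%, 0.0893% and 0.0883% (dendritic) at resolutions 0.5 and 2.0 and with doublets kept; skin blood endothelial cells moved to 0.0702% at resolution 2.0. The labels do not say whether replicate numbers pair fascia with skin. Deviations of same-numbered libraries correlated at -0.17 to 0.02, which cannot settle it, since depth and clusters also differ between libraries. The crossed pairing in blood endothelial cells, added for its -0.17, called 1 higher and 8 lower. Dendritic cells at 1000 genes and the Lce1m gate with a higher minimum, whole clusters or doublets kept had too few cells for a value. For gates and keratinocytes, leaving out a skin library gave values with no test. The causes were not tested. Few skin macrophages and dendritic cells limit those comparisons.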

Other observations

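The casein-led epithelial cluster of skin, which no marker list named, gave 0.130% and 0.126% of its UMIs to the 29 genes in libraries 1 and 2 (224 and 174 cells), near the keratinocyte-like cells at 0.140% and 0.134%. A Cd207-led cluster of skin, Cd207 being the langerin gene of Langerhans cells, gave 0.0916% and 0.126% (161 and 341 cells). Melanocyte-like cells, found in skin library 2 alone, gave 0.221% (110 cells, exact 95% interval 0.205% to 0.238%, counting error only). Fascia neutrophil-like cells gave 0.0481% in library 2 (44 cells, interval 0.0356% to 0.0635%).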
